A study of Bos taurus with 12 samples.

Results

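The clock genes described here are NR1D1, NR1D2, PER1, PER2, PER3, CRY1, CRY2, CLOCK, DBP and NFIL3, and every probe set that the platform's annotation names for one of these 10 symbols was taken. This gave 6 probe sets of 24016 that are not controls, for 4 genes of the 9155 named on the arrays: NR1D1 and CRY1 had 1 probe set each, and PER2 and NFIL3 had 2 each. NR1D2, PER1, PER3, CRY2, CLOCK and DBP were named by none and are not analysed here, while 10638 probe sets carry no gene symbol. The set was chosen by its relation to NR1D1, which was itself selected on its measured difference between HZ and RZ in these same arrays, so the zone differences are given as a description. Where a threshold or p-value is printed for one of these 4 genes, it is part of that description and nothing is read from it.

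The cells were chondrocytes of the growth plate, the cartilage layer in which a long bone lengthens, from the distal end of the metacarpus of male dairy cattle under 10 months old. They were freed from their matrix by collagenase P over 4 h and parted by density into a lightest fraction, labelled hypertrophic zone (HZ), and a heaviest one, labelled reserve zone (RZ). Each of 12 one-colour arrays held total RNA of 1 fraction, and the arrays form 6 numbered pairs of HZ and RZ. The pairs are described as independent, but nothing says that each came from 1 animal, so errors and p-values speak of these pairs and not of animals. The standard errors and p-values of limma also draw on variance pooled over all probe sets, so they are not the plain spread of the pairs. The time of day at which tissue was taken is not given in the sources used here.

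The circadian clock is a transcriptional feedback loop that runs in most cells, those of cartilage included. CLOCK and its partner BMAL1 switch on genes through E-box elements, the PER and CRY proteins they induce act back on CLOCK and BMAL1, and NR1D1 and NR1D2 (REV-ERB alpha and beta) are haem-binding nuclear receptors that repress the gene of BMAL1. In output, DBP and its relatives activate D-box elements that NFIL3 represses, and the ROR receptors activate the elements that NR1D1 represses. All 4 measured members encode repressors in this scheme, so activators could be read only through genes outside the list.

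The fractions differed in zone markers: of 6 measured hypertrophic genes 5 rose in HZ, with COL10A1 as the exception (log2 difference 0.11 ± 0.16, limma adjusted p = 0.755), and 4 of 4 reserve genes fell. By brightest probe set, 0 of 5 chondrocyte genes passed in limma (0 also at an unadjusted p under 0.05). Their summed signal was 63832 to 103072 in HZ and 54740 to 107238 in RZ. A dimmer COL11A1 probe set did pass, with a rise of 0.76 ± 0.15 in 6 of 6 pairs (limma adjusted p = 0.0189). The brightest one gave 0.17 ± 0.15 (adjusted p = 0.585), and the remaining COL11A1 probe sets had higher means in HZ without passing. Pairs 1 and 2 stood apart from pairs 3 to 6 on the leading principal component (22.8% of the variance), and the smallest step between values was 0.0237 to 0.0318 there against 0.00884 to 0.011 in the others, so differences are also given within each set of pairs. On the zone component (18.9%), HZ-2 lay nearest to RZ. Over all probe sets, 1494 of 24016 (6.22%) passed an adjusted p of 0.05 in limma's paired fit, 782 higher (3.26%) and 712 lower in HZ (2.96%), and the median log2 difference was -0.01.

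NR1D1 was much higher in the hypertrophic zone, while PER2, CRY1 and NFIL3 were on average lower there. Signals are on the recovered scale on which every array has a median of 96.7, and differences are HZ minus RZ of log2(signal + 16) with the standard error of the paired fit. On that scale NR1D1 differed by 2.36 ± 0.25, PER2 by -0.66 ± 0.19, CRY1 by -0.39 ± 0.15 and NFIL3 by -0.26 ± 0.21 (n = 6 pairs, brightest probe set of each gene). Of the 4 genes 1, NR1D1, was past the threshold, beside 7.73% of all 9155 named genes. The rule used this contrast, so nothing is read from that share. In bulk RNA, a change in the number of cells that express a gene and a change in RNA per cell cannot be told apart.

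**Figure D1:**
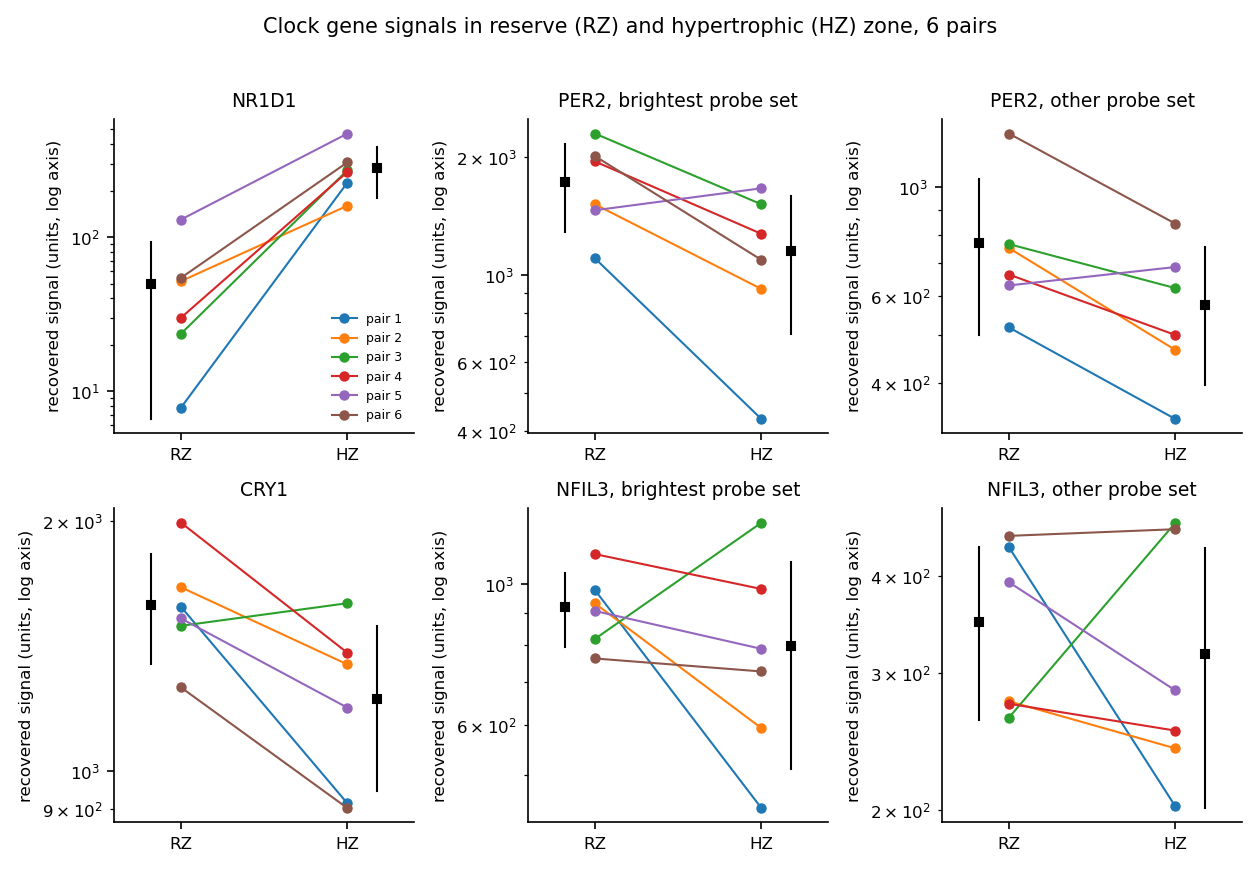
Recovered signal (log axis) of the 6 probe sets of NR1D1, PER2, CRY1 and NFIL3 on the RZ and HZ arrays, with a line for each of 6 pairs and black squares with bars for the zone mean ± SD. All NR1D1 lines rise, and its lowest HZ signal (160) lies above its highest RZ signal (130), while the zones overlap for the other 5 probe sets.

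NR1D1, the nuclear receptor that represses BMAL1 and many metabolic genes, had HZ signals of 226, 160, 272, 265, 470 and 306 in pairs 1 to 6. Its RZ signals were 7.83, 51.8, 23.6, 30, 130 and 54.4 in the same pairs. The zones did not overlap, which held for 2.89% of all probe sets (1.68% with HZ higher), and in RZ only pair 5 lay above the array median. Mean HZ signal was 283 ± 104 and mean RZ signal 49.6 ± 43 (SD, n = 6), a 5.12-fold difference on the scale with 16 added. Pair 5 was the highest in both zones, whereas the lowest HZ signal was that of pair 2 and the lowest RZ signal that of pair 1.

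The difference in NR1D1 was positive in 6 of 6 pairs, with 3.34, 1.38, 2.86, 2.61, 1.74 and 2.19 in pairs 1 to 6. It was widest in pair 1, which had the dimmest RZ array, and narrowest in pair 2. Pairs 1 and 2 averaged 2.36 and pairs 3 to 6 averaged 2.35, and it ran from 2.16 to 2.55 when each pair was left out in turn. Because the RZ signals are dim, its size depends on the constant added before the logarithm: 2.87 (7.29-fold) with 1 added and 1.64 with 64 added.

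PER2, which with the CRY proteins holds back CLOCK and BMAL1, had lower means in HZ than in RZ on both probe sets. The brightest gave 429, 922, 1517, 1275, 1667 and 1094 in HZ of pairs 1 to 6. Its RZ signals were 1104, 1517, 2300, 1952, 1465 and 2014. The zones overlapped, since HZ of pair 5 (1667) exceeded 3 of the RZ arrays, and the HZ mean was 1151 ± 445 against an RZ mean of 1725 ± 439 (SD, n = 6). The difference of -0.66 ± 0.19, a factor of 1.57, was negative in 5 of 6 pairs, from -1.33 in pair 1 to 0.18 in pair 5.

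The other PER2 probe set gave the same signs in all 6 pairs. Its signals ran from 337 (median 562) to 843 in HZ and from 518 (median 708) to 1287 in RZ, with means of 576 ± 180 and 770 ± 269 (SD, n = 6). The difference was -0.41 ± 0.15, from -0.67 in pair 2 to 0.12 in pair 5. Pair 1 had the lowest PER2 signal of both zones on both probe sets. On the brightest probe set pairs 1 and 2 averaged -1.02 and pairs 3 to 6 averaged -0.47.

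CRY1, the cryptochrome that binds CLOCK and BMAL1 and blocks their activity, had HZ signals of 913, 1343, 1592, 1387, 1191 and 901 in pairs 1 to 6. In RZ they were 1576, 1664, 1495, 1991, 1526 and 1260. The zones overlapped, and pair 6 was the lowest in both. The HZ mean was 1221 ± 275 and the RZ mean 1585 ± 240 (SD, n = 6), and the difference of -0.39 ± 0.15, a factor of 1.31, was negative in 5 of 6 pairs, with 0.09 in pair 3. Pairs 1 and 2 averaged -0.54, and pairs 3 to 6 averaged -0.31.

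NFIL3 (E4BP4), a leucine zipper repressor that competes with DBP for D-box elements, had the smallest mean difference of the 4 genes. Its brightest probe set gave 444, 593, 1247, 981, 790 and 728 in HZ of pairs 1 to 6. The RZ signals were 977, 931, 819, 1113, 906 and 763. HZ held both the lowest and the highest signal, so it spread more widely (797 ± 285) than RZ (918 ± 123; SD, n = 6). The difference of -0.26 ± 0.21 was negative in 5 of 6 pairs, and pair 3 went the other way by 0.60.

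By single pairs the brightest NFIL3 probe set gave -1.11, -0.64, 0.60, -0.18, -0.19 and -0.06. Pairs 1 and 2 averaged -0.87 and pairs 3 to 6 averaged 0.04, a gap that did not pass in limma's interaction fit (unadjusted p = 0.0329, adjusted p = 0.937). The mean moved to -0.44 without pair 3, the only positive one, and to -0.10 without pair 1. The other NFIL3 probe set had signals from 202 to 469 in HZ (mean 318 ± 117) and from 263 to 451 in RZ (mean 349 ± 87.6; SD, n = 6). Its difference was -0.16 ± 0.22, negative in 4 pairs and positive in pairs 3 (0.80) and 6 (0.03).

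The 4 repressors did not share a direction. NR1D1 was higher in HZ in every pair. PER2, CRY1 and NFIL3 were all lower there in pairs 1, 2, 4 and 6, by their brightest probe sets. In pair 3 CRY1 and NFIL3 were higher in HZ, in pair 5 PER2 was. Levels over both zones also varied between pairs without a shared order: the mean log2 level spanned 1.81 for NR1D1, with pair 5 highest and pair 1 lowest, and 1.42 for PER2 on its brightest probe set, with pair 3 highest and pair 1 lowest. For CRY1 and the brightest probe set of NFIL3 it spanned 0.63 and 0.65.

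**Figure D2:**
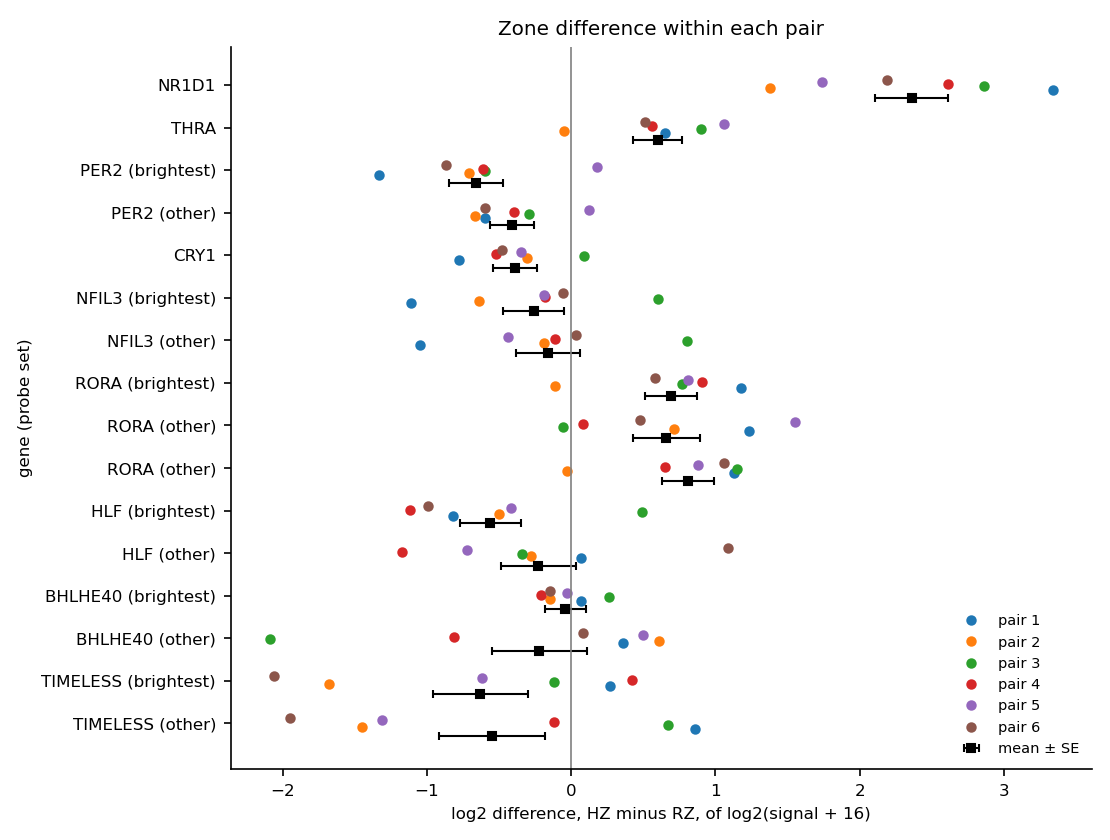
Log2 difference between HZ and RZ in each of 6 pairs (coloured points) with the mean ± SE of the paired fit (black squares), for every probe set of the 4 clock genes, of THRA and of the 4 other core clock genes measured. NR1D1 lies between 1.38 and 3.34, PER2, CRY1 and NFIL3 lie mostly below 0, and RORA lies above 0 except for pair 2 on 2 of its probe sets and pair 3 on the remaining one.

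Of 14 other core clock symbols 4 were measured: RORA, HLF, BHLHE40 and TIMELESS. None of these genes passed by its brightest probe set in limma (2 had an unadjusted p under 0.05), and their median difference was -0.30 against -0.01 over all named genes. RORA, the receptor that activates the elements NR1D1 represses, had HZ signals from 193 (median 323) to 430 and RZ signals from 161 (median 177) to 210. HZ of 5 pairs lay above all RZ arrays, and HZ of pair 2 did not. The difference was 0.69 ± 0.18 (limma adjusted p = 0.0546), positive in 5 of 6 pairs. Of the 6 fits that leave out a pair, it passed only without pair 2 (0.85, adjusted p = 0.0256), the pair of opposite sign. The others gave adjusted p = 0.0909 to 0.156.

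The other RORA probe sets gave 0.66 ± 0.23 (adjusted p = 0.117) and 0.81 ± 0.18 (adjusted p = 0.0327, limma), of which the latter, the dimmest of the 3, passed. HLF, an activator of D-box genes related to DBP, had HZ signals from 24.4 (median 66.1) to 175 and RZ signals from 64.1 (median 113) to 145. Its difference was -0.56 ± 0.21 (adjusted p = 0.156), negative in 5 of 6 pairs with 0.49 in pair 3. Of the 6 fits that leave out a pair, it passed only without pair 3 (-0.77, adjusted p = 0.0342). The others gave adjusted p = 0.239 to 0.334. The other HLF probe set gave -0.23 ± 0.26 (adjusted p = 0.678). In pair 3 the brightest HLF probe set was higher in HZ, as were NFIL3 and, by 0.09, CRY1. The other HLF probe set was lower there (-0.34).

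BHLHE40 (DEC1), which represses E-box genes, had a nearly even signal, from 5833 (median 6086) to 6948 in HZ and from 5555 (median 6483) to 6966 in RZ. Its difference was -0.04 ± 0.14 (limma adjusted p = 0.92), and its dimmer probe set gave -0.22 ± 0.33. TIMELESS, whose mammalian product acts mainly at replication forks, had dim signals, from 13.1 to 141 in HZ and from 67.6 to 133 in RZ, and differed by -0.63 ± 0.33 (adjusted p = 0.295) and -0.55 ± 0.37 (adjusted p = 0.434) on its 2 probe sets.

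By sign alone, the activators RORA and HLF and the repressors did not part into separate groups in these values. Neither RORA nor HLF passed by its brightest probe set (limma adjusted p = 0.0546 and 0.156), and the repressor BHLHE40 was nearly even (-0.04 ± 0.14). The activator RORA was higher in HZ in 5 of 6 pairs, as the repressor NR1D1 was in 6. By brightest probe sets, the activator HLF was lower in HZ in 5 of 6 pairs, as were the repressors PER2, CRY1 and NFIL3. The activators CLOCK and DBP of the list, and BMAL1, are not analysed here.

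NR1D1 overlaps THRA, the gene of thyroid hormone receptor alpha, in the RefSeq annotation of the cattle assembly ARS-UCD2.0, and the identifiers of their probe sets share a stem. Which of the overlapping genes each probe set reads rests on the platform's annotation. The THRA probe set gave 174, 118, 217, 132, 167 and 163 in HZ of pairs 1 to 6 and 106, 122, 109, 84.6, 72.1 and 110 in RZ. Its difference of 0.60 ± 0.17 did not pass (limma adjusted p = 0.0682) but did with 64 added (adjusted p = 0.0444), without dim probe sets (0.0462), with a variance trend (0.0488) and without pair 2 (0.73, 0.0441). It was positive in the same pairs as NR1D1 except pair 2 (-0.05). The pairs ranked otherwise: THRA differed most in pair 5 (1.06), where NR1D1 gave 1.74.

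Other neighbours with a probe set were HES6 beside PER2 and ROR2 and AUH beside NFIL3. HES6, a basic helix-loop-helix factor, differed by -0.20 ± 0.24 (limma adjusted p = 0.7). ROR2, a WNT5A receptor known for its role in growth plate cartilage, differed by -0.25 ± 0.14 (adjusted p = 0.351). AUH, an enzyme of leucine breakdown, differed by 0.12 ± 0.15 (adjusted p = 0.707) on the brighter of its 2 probe sets. By its brightest probe set, each of these 3 genes missed the threshold.

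Over 77 symbols of other core clock genes, clock kinases, phosphatases, ubiquitin ligases and cofactors, and known output genes, 49 genes were measured. By brightest probe set, 1 rose (GSK3B), 2 fell (HUWE1 and PDK4) and 46 did not pass, beside 4.17% of named genes higher and 3.56% lower in HZ. Among genes counted as not passing, a dimmer SFPQ probe set fell in 6 of 6 pairs without overlap (-1.22 ± 0.16, limma adjusted p = 0.0045). The brightest SFPQ probe set gave -0.43 (adjusted p = 0.133) and the dimmest -0.97 (adjusted p = 0.322). A dimmer TSPAN4 probe set also passed (-1.07 ± 0.25, adjusted p = 0.0341), against -0.62 (adjusted p = 0.0718) on the brightest. The median difference of the 49 was -0.11. Among the 26 measured kinases, phosphatases, ligases and cofactors it was -0.07, and CSNK1D and CSNK1E, the casein kinases that phosphorylate PER proteins, differed by -0.12 (limma adjusted p = 0.702) and -0.25 (adjusted p = 0.586).

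GSK3B, the kinase known to phosphorylate NR1D1, PER2 and CRY2, had HZ signals from 557 (median 1559) to 2482 and RZ signals from 288 (median 344) to 385 on its brightest probe set. The zones did not overlap, although HZ of pair 2 was far below the other HZ arrays. It rose by 2.01 ± 0.26 in 6 of 6 pairs (adjusted p = 0.00441), from 0.51 in pair 2 to 2.73 in pair 3. Another probe set gave 2.18 ± 0.23 (adjusted p = 0.00175), while the dimmest of the 3, near the lower end of the signals, gave 0.20 ± 0.19 (adjusted p = 0.616). NR1D1 and GSK3B both differed least in pair 2, as did 519 of all 1494 probe sets that passed.

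HUWE1, a ubiquitin ligase known to act on NR1D1 protein, fell by 0.71 on the log2 scale (SE 0.15, limma adjusted p = 0.022) in 6 of 6 pairs. Its signals ran from 165 (median 439) to 612 in HZ and from 322 (median 739) to 1079 in RZ, and the zones overlapped because the pairs differed in level. The call was lost without the pair as a block (adjusted p = 0.332) and in 5 of the 6 fits that leave out a pair. The other HUWE1 probe set gave -0.95 ± 0.23 (adjusted p = 0.039).

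**Figure D3:**
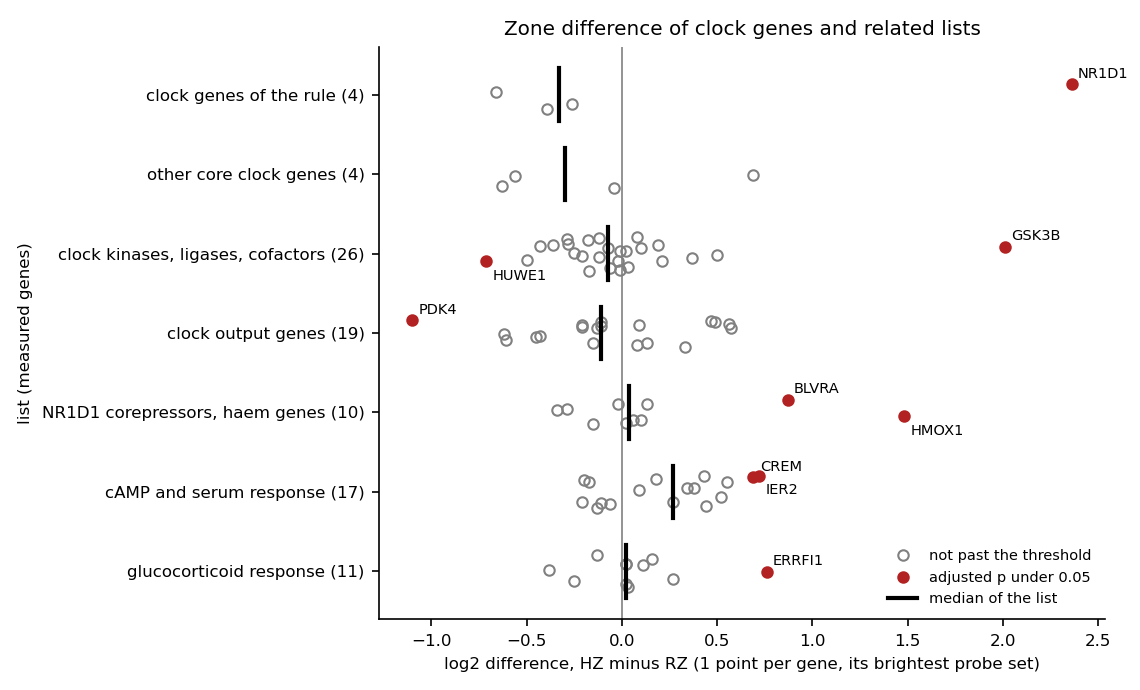
Log2 difference between HZ and RZ of each measured gene (1 point, its brightest probe set) in the clock list and 6 related lists, with the median of each list as a black bar and genes past an adjusted p of 0.05 filled and named. NR1D1 (2.36), GSK3B (2.01) and HMOX1 (1.48) lie farthest to the right, and list medians lie between -0.33 and 0.27.

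Of 19 measured clock output genes, PDK4 fell and 18 did not pass by brightest probe set, with a median of -0.11. PDK4, which holds back pyruvate oxidation, had HZ signals from 104 (median 164) to 245 and RZ signals from 279 (median 343) to 814. The zones did not overlap. It fell by 1.10 on the log2 scale (SE 0.19, limma adjusted p = 0.0121), and its other probe sets gave -1.11 (adjusted p = 0.0176) and a level lower by a factor of 2 (adjusted p = 0.0416). WEE1 and NAMPT, which the clock is known to drive through E-boxes, differed by -0.11 (adjusted p = 0.775) and -0.43 (adjusted p = 0.278).

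NR1D1 represses through the corepressor NCOR1 and the deacetylase HDAC3 and needs haem as its ligand. Of 10 measured genes of 12 listed for these functions, 2 rose and none fell, beside 4.17% of named genes higher and 3.56% lower in HZ. The median of the 10 was 0.04. Both that rose break down haem or its product. HMOX1, haem oxygenase 1, had HZ signals from 3921 (median 4967) to 5765 and RZ signals from 1335 (median 1777) to 2045. Its zones did not overlap, and it rose by 1.48 ± 0.16, 2.78-fold (limma adjusted p = 0.00175), in 6 of 6 pairs.

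BLVRA, biliverdin reductase A, which acts on the product of haem oxygenase, rose by 0.87 ± 0.17 (limma adjusted p = 0.0187), with HZ signals from 435 (median 506) to 880 and RZ signals from 247 (median 287) to 349. The BLVRA call was lost without pair 4 (adjusted p = 0.0594), without pair 5 (0.0663), with 1 added (0.0549) and in 4 other alternatives of 17. ALAS1, the entry enzyme of haem synthesis, differed by 0.10 ± 0.17 (adjusted p = 0.783). The repressor partners had lower means in HZ without passing: NCOR1 differed by -0.15 ± 0.19 (adjusted p = 0.712) and HDAC3 by -0.34 ± 0.16 (adjusted p = 0.256).

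**Figure D4:**
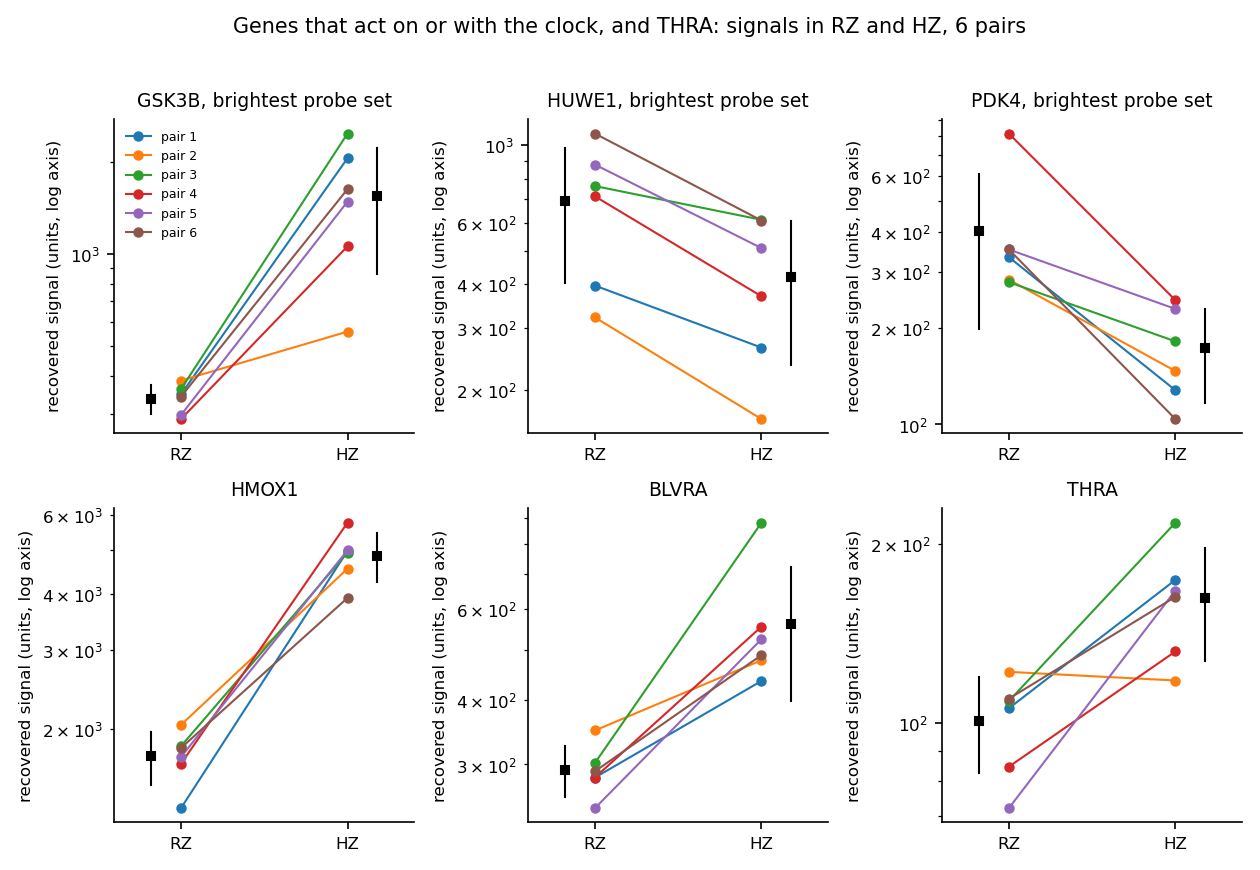
Recovered signal (log axis) of the brightest probe sets of GSK3B, HUWE1, PDK4, HMOX1, BLVRA and THRA on the RZ and HZ arrays, with a line for each of 6 pairs and black squares with bars for the zone mean ± SD. GSK3B, HMOX1 and BLVRA lie above and PDK4 below without overlap between zones, while HUWE1 falls along parallel lines and THRA is flat in pair 2.

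Clock genes, PER1 and PER2 above all, also respond to serum, cAMP and glucocorticoids. Of 17 measured genes of the serum and cAMP response 2 rose, IER2 by 0.72 ± 0.16 (limma adjusted p = 0.0303) and CREM by 0.69 ± 0.17 (adjusted p = 0.046), and none fell. Of all named genes 4.17% were higher and 3.56% lower in HZ. The list's median was 0.27, which split into -0.03 for pairs 1 and 2 and 0.32 for pairs 3 to 6. IER2 lost its call in 4 of the 6 fits that leave out a pair (without pair 1, 4, 5 or 6; adjusted p = 0.0803 to 0.093, limma) and on the mean of its probe sets (0.47, adjusted p = 0.201), and its other probe sets gave 0.48 (adjusted p = 0.447) and 0.21 (adjusted p = 0.589). CREM rested on its brightest probe set, lost its call whichever pair was left out, and differed little on 5 other probe sets (-0.10 to 0.16). Some of those 5 lay near the lower end of the signals and say little, the dimmest with means of 15.8 in HZ and 11.1 in RZ. The brightest of the 5 gave -0.04, with means of 288 in HZ and 295 in RZ. FOS and EGR1, which respond fastest, differed by -0.06 (adjusted p = 0.854) and -0.20 (adjusted p = 0.626).

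Of 11 measured glucocorticoid response genes ERRFI1, a feedback inhibitor of the EGF receptor, rose by 0.76 ± 0.14 (limma adjusted p = 0.0153). The other 10 did not pass, and the list's median was 0.02. Among all named genes 4.17% were higher and 3.56% lower in HZ. The ERRFI1 call was lost in 6 of 17 alternatives, among them without the pair as a block (limma adjusted p = 0.116) and without pair 5 (0.0605). Its other probe sets gave 0.89 (adjusted p = 0.0269), 1.24 (adjusted p = 0.154) and 0.48 (adjusted p = 0.23). FKBP5, a common readout of the glucocorticoid receptor, differed by 0.16 (adjusted p = 0.627), and NR3C1, the receptor's own gene, by 0.02 (adjusted p = 0.965).

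Across the 12 arrays, the genes whose log2 signal followed that of NR1D1 most closely among 7809 named candidates were ADM (Pearson r 0.96), LIMCH1, LOX and QPRT (0.95 each) and PRADC1 (0.93). All 12 points share the step between zones. With the zone means removed, r was 0.80 for ADM, 0.76 for QPRT, 0.75 for LIMCH1 and for LOX, and 0.67 for PRADC1. These genes, and the most opposite ones, were picked from 7809 candidates on the same 12 arrays. Their values without zone means are therefore not independent of that choice and are only a description. ADM, the peptide adrenomedullin, differed between zones by 2.13 and LOX, which cross-links collagen and elastin, by 3.18, whereas QPRT, an enzyme of NAD synthesis, differed by 0.73 and PRADC1 by 0.27. The most opposite were LRP12 (-0.92), TRPC1 and BASP1 (-0.91 each), and CD40 and POLR1H (-0.90 each), of which TRPC1, a cation channel, kept the largest size without zone means (-0.83).

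Markers of other cells also differed between the zones, and their part in the clock gene differences was not tested beyond the values here. Of 5 measured macrophage genes C1QA (1.95), C1QB (1.64) and C1QC (1.80) rose. CD14 was lower in HZ on its brightest probe set (-0.81 ± 0.26, limma adjusted p = 0.103). Its other probe set was lower in 6 of 6 pairs and passed (-1.02 ± 0.22, adjusted p = 0.0254). CD68 differed by 0.14 (adjusted p = 0.643). The summed signal of the list was 1122 to 2374 in HZ and 934 to 1917 in RZ. In pair 3, where C1QA differed least (0.34), NR1D1 differed by 2.86. C1QC differed least in pair 2 (0.57), where NR1D1 also did (1.38). C1QB differed least in pair 6 (0.66), where NR1D1 differed by 2.19. The osteoclast genes ACP5 and CTSK rose (2 of 3, summed signal 7104 to 9958 in HZ, 2272 to 5645 in RZ). By brightest probe set, CATHL1 of 5 granulocyte genes fell (209 to 1851, 401 to 9880), as did CD2 and NKG7 of 4 lymphocyte genes (146 to 279, 226 to 543) and PECAM1 of 3 endothelial genes (135 to 377, 351 to 610). The dimmer NKG7 probe set went the other way in 6 of 6 pairs without passing (0.78 ± 0.29, limma adjusted p = 0.144). The dimmer CD2 probe sets gave 0.13 (adjusted p = 0.795) and 0.21 (adjusted p = 0.569). The other PECAM1 probe set also fell (-1.36, adjusted p = 0.0485). In limma 0 of 3 osteoblast and fibroblast genes passed (2 had an unadjusted p under 0.05; 2538 to 5238, 3141 to 17903), and 0 of 3 red cell genes did (0 unadjusted; 12 to 108, 45 to 174).

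The log2 ratio of the 3' to the 5' control probe set of actin, which rises as RNA is degraded, averaged 3.03 ± 0.685 on the HZ arrays and 2.34 ± 0.453 on the RZ arrays (SD, n = 6), with HZ above RZ in 5 of 6 pairs (two-sided exact sign-flip test, p = 0.0625, smallest possible 0.03125). By the same exact test the GAPDH ratio did not pass either (0.52 ± 0.651 against 0.10 ± 0.285, HZ above RZ in 5 of 6 pairs, p = 0.125), and EF1A ran the other way (-2.50 ± 0.394 against -2.26 ± 0.295, HZ above RZ in 1 of 6 pairs, p = 0.406). The GAPDH ratio was highest in HZ of pairs 3 (1.46) and 4 (1.21). Without these pairs NR1D1 differed by 2.16, PER2 by -0.68, CRY1 by -0.48 and NFIL3 by -0.50. None of the 4 genes passed in limma's fit to the remaining pairs. At an unadjusted p under 0.05 there were 3, beside 4785 of all 24016 probe sets, and nothing is read from that count.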

How the data were processed

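Per the labels, total RNA was taken with RNA STAT-60 and biotinylated cRNA was made with an Ambion kit. The sources used here do not give the scanner software or the normalization. The deposited values are linear ratios for 24128 probe sets, 112 of them controls. Values of 21901 probe sets (90.8%) were divided by that probe set's own median over arrays and those of 2227 by 1 fixed value, as read from the values. On each array the ratios were whole multiples of 1 smallest step, which gave back each signal (largest distance from a whole multiple 0.0775 steps; 99.95% right in 4000 simulated probe sets). The unit rests on taking 1 step as 0.1 signal units, an assumption that sets how large the added constant is against dim signals. The planned fit had foreseen this recovery.

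Probe sets were named from the platform's annotation (13292 with 1 symbol, 86 with several and 10638 with none), and 13263 matched RefSeq, assembly ARS-UCD2.0, by Entrez identifier, used for names and neighbours only. The test was limma 3.58.1 (R 4.3.3) on log2(signal + 16), with the pair as a block (5 residual degrees of freedom). Its variances, and so its standard errors, were moderated over all probe sets. Benjamini-Hochberg adjustment ran over 24016 probe sets, at 0.05. Deviations from the zone mean were correlated between arrays of the same number (0.124 to 0.447 over 6 pairs), and the series description speaks of sample pairs, so the block was kept. On simulated differences in these 24016 probe sets, 59% of those of log2 size 1 and 92% of size 2 were recovered with 6 false calls. The probe set of highest mean log2 signal stands for its gene. Named are all probe sets of the members, the other measured core clock genes, list genes past the threshold, neighbours, and the 5 genes most and 5 least correlated with NR1D1 among those brighter than the median; a few further list genes (CSNK1D, CSNK1E, WEE1, NAMPT, NCOR1, HDAC3, ALAS1, FOS, EGR1, FKBP5 and NR3C1) were chosen for their known roles after values were seen. The members and lists were chosen with earlier results of these data known. Alternatives were the block, the constant, the deposited ratio, quantile normalization, a filter on dim probe sets, gene means, a variance trend and subsets of pairs.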

Additional observations from a re-analysis of the deposited data

Results flagged for a closer look

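Of 48 groups of 6 arrays examined, 3 held 1 array far from the others by Dixon's test, which chance does in about 1 of 20 groups. One RORA probe set, the second brightest, had a signal of 345 on HZ-1, with the other HZ arrays between 96.8 and 140. The brightest PDK4 probe set had a signal of 814 on RZ-4, with the other RZ arrays between 279 and 353. BLVRA had a signal of 880 on HZ-3, with the other HZ arrays between 435 and 554. No array of NR1D1, PER2, CRY1 or NFIL3 was singled out in this way.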

How the results depend on the processing

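The counts of the 4 clock genes are a description, since the members were chosen on this contrast: 1 was past the threshold in the main setting, 2 with 64 added and with a variance trend (PER2 added, lower in HZ), 1 to 1 when each pair was left out, and 0 in limma in pairs 1 and 2 alone and without pairs 3 and 4 (chosen after seeing the data), with 3 at an unadjusted p under 0.05 in each. NFIL3 was reversed to 0.04 in pairs 3 to 6. Of 49 other clock genes, 3 in the main setting, 7 passed with 64 added and with the trend, 6 with quantile normalization, with the filter and with gene means, 1 in pairs 3 to 6, and 0 in pairs 1 and 2 (7 unadjusted) and without pairs 3 and 4 (14 unadjusted); leaving out a pair gave 2 to 8, with 8 without pair 3. Over all probe sets 1494 passed (782 higher, 712 lower), 583 with 1 added (368, 215), 478 with the deposited ratio (315, 163), 2137 with 64 added (1017, 1120), 2218 with the trend (1051, 1167), 1947 with the filter (960, 987), 1667 with quantile normalization (936, 731), 336 in pairs 3 to 6 (258 higher, 78 lower), 139 without pairs 3 and 4 and 0 in pairs 1 and 2 (2930 unadjusted), and leaving out a pair gave 557 to 1540. The fit without pairs 3 and 4 had 4785 of 24016 probe sets at an unadjusted p under 0.05 in limma. Without the pair as a block, 831 probe sets passed (505 higher, 326 lower), 1 of 4 clock genes and 2 of 49 other clock genes. Of 289 values of single genes under alternatives, 221 kept direction and side of the threshold, 54 lost the call, 13 gained it and 1 reversed. The causes were not tested, beyond the fewer arrays in each subset. Detection calls were not used here, so signals near the lower end have no stated limit, and the number of pairs limits every value.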
